A study of Mus musculus with 14 samples.

Results

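Broad active promoters are here the H3K4me3 peaks of Cas9-labelled mouse tumour cells that span 1000 bp or more, share at least 1 bp with an H3K27ac peak of the same cells and touch none of their H3K27me3 islands. There were 2229 such peaks among the 14363 H3K4me3 peaks of these cells, or 15.5%. They made up 31.9% of the 6988 H3K4me3 peaks of any width that met both conditions on acetylation and H3K27me3. The other 4759 of these, under 1000 bp, are called narrow active promoters. The word promoter rests on H3K4me3 alone, since a gene annotation of mouse build mm9, the build of the lists, was not used here.

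H3K4me3 is a methyl mark that sits on nucleosomes around active transcription start sites, and wide stretches of it are known from genes that are strongly and steadily expressed, among them genes that define a cell type. H3K27ac is an acetyl mark of active promoters and enhancers on the same lysine that Ezh2, the methyltransferase of Polycomb repressive complex 2 (PRC2), modifies with H3K27me3 at silent genes. Suz12 is a further core subunit of PRC2, and Gfi1 is a zinc finger protein that binds DNA and recruits repressors.

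The tumour cells were tumorspheres of Myc-overexpressing G3 medulloblastoma. The knockout was labelled Ezh2KO, with genotype p53-/-;p18-/- ;Ezh2-/-, and its control was labelled Cas9, with genotype p53-/-;p18-/-, so that both lacked p53 and p18. Neurospheres, floating cultures of neural cells, had genotype p53-/-;p18-/- and were labelled Suz12F1, Suz12F2 and U6 for libraries with a Cas9 antibody, and Suz12F2 and Cas9 for libraries with a Gfi1 antibody. The labels describe retroviral infection, sorting of RFP+/GFP+ cells, expansion and transplantation into nu/nu mice. They name the cells tumorspheres, a culture grown as floating spheres, and also describe transplantation, but not the step at which chromatin was taken, whether a line was 1 clone, or what F1, F2 and U6 stand for. Each group had 1 library, so no difference below has a replicate check and no test was made. Intervals in parentheses are Wilson 95% intervals, which cover counting error over regions alone.

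Read depth is unknown, and the lists differ in size. The H3K4me3 list held 14417 peaks over 8.57 Mb in the Ezh2 knockout and 14363 peaks over 9.74 Mb in Cas9 cells. The H3K27ac list held 10112 peaks in the knockout and 7951 in Cas9 cells. The main H3K27ac counts were therefore repeated with the knockout list trimmed by score to 7951 peaks.

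Of 2717 H3K4me3 peaks of 1000 bp or more in Cas9 cells, 422 had no H3K27ac peak and 66 had H3K27ac together with an H3K27me3 island, and these were left out. The 2229 promoters covered 3.06 Mb, or 31.4% of the length of all H3K4me3 peaks. Their width in Cas9 cells had a median of 1267 bp and quartiles of 1112 and 1527 bp, and it reached 3984 bp. The authors' H3K4me3 score, which ranks peaks within 1 list, had a median of 47 in broad active promoters, against 34 in narrow active promoters and 26 in all peaks. These values describe the selection, since width chose the members. At the limit itself, the nearest members were a peak on chromosome 4 from 49644633 to 49645632 and another on chromosome 7 from 118172061 to 118173060, both 1000 bp wide, and a peak on chromosome 7 from 117103201 to 117104201, 1001 bp wide. The nearest peaks outside it, on chromosome 15 from 5093400, chromosome 16 from 84835397 and chromosome 7 from 25292030, were each 999 bp wide. Their overlapping knockout peaks measured 892, 831 and 727 bp for the 3 just inside and 1067, 1118 and 997 bp for the 3 just outside. These are single regions, and they do not describe the peaks on either side of the limit as a whole.

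Broad active promoters kept H3K4me3 in the Ezh2 knockout with 1 exception. A knockout H3K4me3 peak overlapped 2228 of 2229, or 99.96% (99.7 to 99.99), against 85.4% of all H3K4me3 peaks and 95.7% of narrow active promoters. Members were chosen for width, and a wide peak has more length in which to share 1 bp with another. They also had higher scores than the peaks of both other sets. The shares are therefore not a like comparison. The exception lay on chromosome 7 from 149660761 to 149662772. In the knockout it held 0 peaks of either mark. In Cas9 cells it was 2012 bp wide, with a score of 20, and held 3 H3K27ac peaks of 194, 241 and 193 bp. Gfi1 antibody islands covered it in neurospheres of both labels.

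Many broad active promoters were split in the knockout, meaning that 2 or more separate knockout peaks met 1 Cas9 peak. Splitting was seen in 575 promoters, or 25.8% (24.0 to 27.7), against 8.20% of all H3K4me3 peaks and 4.94% (4.36 to 5.59) of narrow active promoters. The knockout held 2 pieces at 514 promoters, 3 at 59 and 4 at 2, and 1 peak at 1653. The 61 with 3 or more pieces were 2.74% (2.136 to 3.50), against 0.585% of all H3K4me3 peaks. Splitting grew with Cas9 width. It was found in 16.2% (14.2 to 18.6) of the 1071 promoters under 1250 bp, 29.4% (25.8 to 33.3) of the 564 from 1250 to under 1500 bp, 33.0% (28.8 to 37.4) of the 455 from 1500 to under 2000 bp and 61.2% (52.9 to 68.8) of the 139 of 2000 bp or more. The part that width itself plays in this order was not tested. Members were chosen by a Cas9 width of 1000 bp or more, while the background and the narrow active promoters have less room for 2 pieces. Their shares of splitting are therefore not a like comparison with those of the members.

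Splitting was also counted in the other direction. Chosen by the same rule in the knockout, 1652 promoters were broad and active there, and 187 of them, or 11.3% (9.88 to 12.9), were met by 2 or more peaks in Cas9 cells, against 3.66% of all knockout peaks. Here too width chose the promoters and not the background. In addition, 106 of the 2229 promoters, or 4.76% (3.95 to 5.72), were joined in the knockout with a further Cas9 peak, against 7.38% of all H3K4me3 peaks.

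The gaps were short. Among the 514 promoters with 2 knockout pieces the gap had a median of 118.5 bp, with quartiles of 80 and 176.5 bp and a largest value of 820 bp. It was at most 100 bp in 38.1% (34.0 to 42.4) and at most 200 bp in 82.9% (79.4 to 85.9), and above 500 bp in 4 promoters. The smallest gap between any peaks was 51 bp in both H3K4me3 lists, so that shorter dips are not seen in either. When peaks closer than 200 bp were merged in both lists, 345 of 2840 promoters were split, or 12.1%, and with merging within 500 bp 83 of 3204, or 2.59%.

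The pieces were unequal. The larger of 2 pieces had a median width of 832.5 bp and the smaller of 312.5 bp, and the smaller measured 38.7% of the larger at the median. Within the knockout list the larger piece stood at a median score percentile of 79.8 and the smaller at 33.1, while the single peak of unsplit promoters stood at 86.8. In 166 of the 514, or 32.3% (28.4 to 36.5), the larger piece still spanned 1000 bp or more. The middle of the gap lay at a median of 38.3% of the distance from the centre of the Cas9 peak to its edge. The quartiles were 19.6% and 56.3%, and a preference for any position was not tested.

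**Figure D1:**
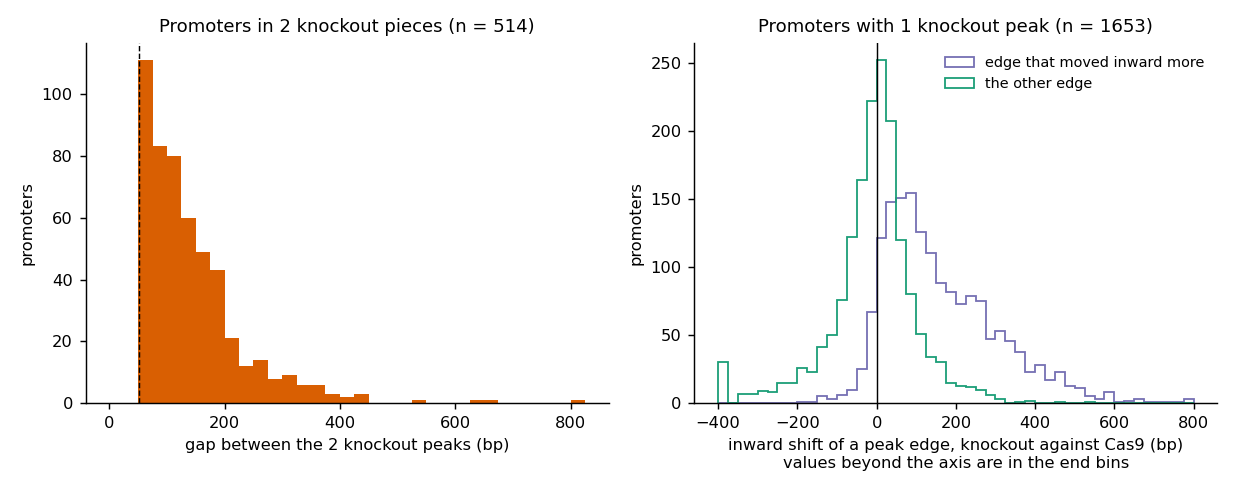
Left, the gap in bp between the 2 knockout peaks of the 514 promoters with 2 pieces, with a dashed line at the 51 bp that is the smallest gap in either list. Right, the inward shift in bp of the 2 edges of the 1653 promoters with 1 knockout peak, where positive values lie inside the Cas9 peak. Most gaps were under 200 bp. With the edges of each promoter sorted by shift, which sets them apart by construction, the median shifts were 126 bp and 1 bp.

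H3K27ac overlapped the larger piece more often than the smaller. A knockout H3K27ac peak overlapped the larger piece in 91.8% (89.1 to 93.9) of the 514 promoters and the smaller in 47.9% (43.6 to 52.2). The pieces also differed in width, whose part in these shares was not tested. The gap itself was free of H3K27ac in 64.4% (60.2 to 68.4) in the knockout and in 58.9% (54.6 to 63.1) in Cas9 cells. In 163 promoters with 2 knockout pieces and exactly 2 H3K27ac peaks in Cas9 cells, the gap between the pieces and the gap between those H3K27ac peaks shared at least 1 bp in 125, or 76.7% (69.6 to 82.5). Both gaps lay inside the same H3K4me3 peak, so that some would meet by position alone, and how many was not tested.

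The promoters with the most pieces show the pattern. On chromosome 16 from 10784041 to 10786407, 4 knockout H3K4me3 peaks of 223, 897, 335 and 611 bp stood against a single Cas9 peak of 2367 bp. H3K27ac there lay in 4 knockout peaks of 356, 289, 252 and 394 bp and in 3 Cas9 peaks of 947, 271 and 582 bp. H3K27ac was thus broken up in both kinds of cell and H3K4me3 in the knockout. On chromosome 6 from 145810951 to 145813858, knockout peaks of 1524, 180, 225 and 604 bp stood against the Cas9 peak of 2908 bp, and 1 knockout H3K27ac peak of 1288 bp stood against Cas9 peaks of 840 and 365 bp. Here the knockout had fewer H3K27ac peaks and more H3K4me3 peaks.

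The widest members were alike in the ratio of knockout to Cas9 width, between 0.831 and 0.930, but not in number of pieces. The widest, on chromosome 11 from 102177556 to 102181539, had knockout peaks of 352 and 2960 bp against 3984 bp in Cas9 cells, and 1 H3K27ac peak in each, of 2200 bp in the knockout and 2251 bp in Cas9 cells. The second, on chromosome 17 from 86084055 to 86087654, had knockout peaks of 1466 and 1882 bp against 3600 bp in Cas9 cells. The third, on chromosome 9 from 62189150 to 62192671, was not split, with 3131 bp in the knockout and 3522 bp in Cas9 cells. It held 3 H3K27ac peaks in the knockout and 4 in Cas9 cells, which covered 27.5% and 38.2% of it. All 3 carried H3K27ac in both kinds of cell. The fourth, on chromosome 17 from 4994070 to 4997456, had knockout peaks of 267, 688 and 2098 bp against 3387 bp in Cas9 cells. The fifth, on chromosome 11 from 102465689 to 102468910, had knockout peaks of 2083, 257 and 414 bp against 3222 bp. Its H3K27ac lay in 1 knockout peak of 629 bp and in 3 Cas9 peaks of 540, 298 and 476 bp, so both small H3K4me3 pieces lacked acetylation in the knockout.

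**Figure D2:**
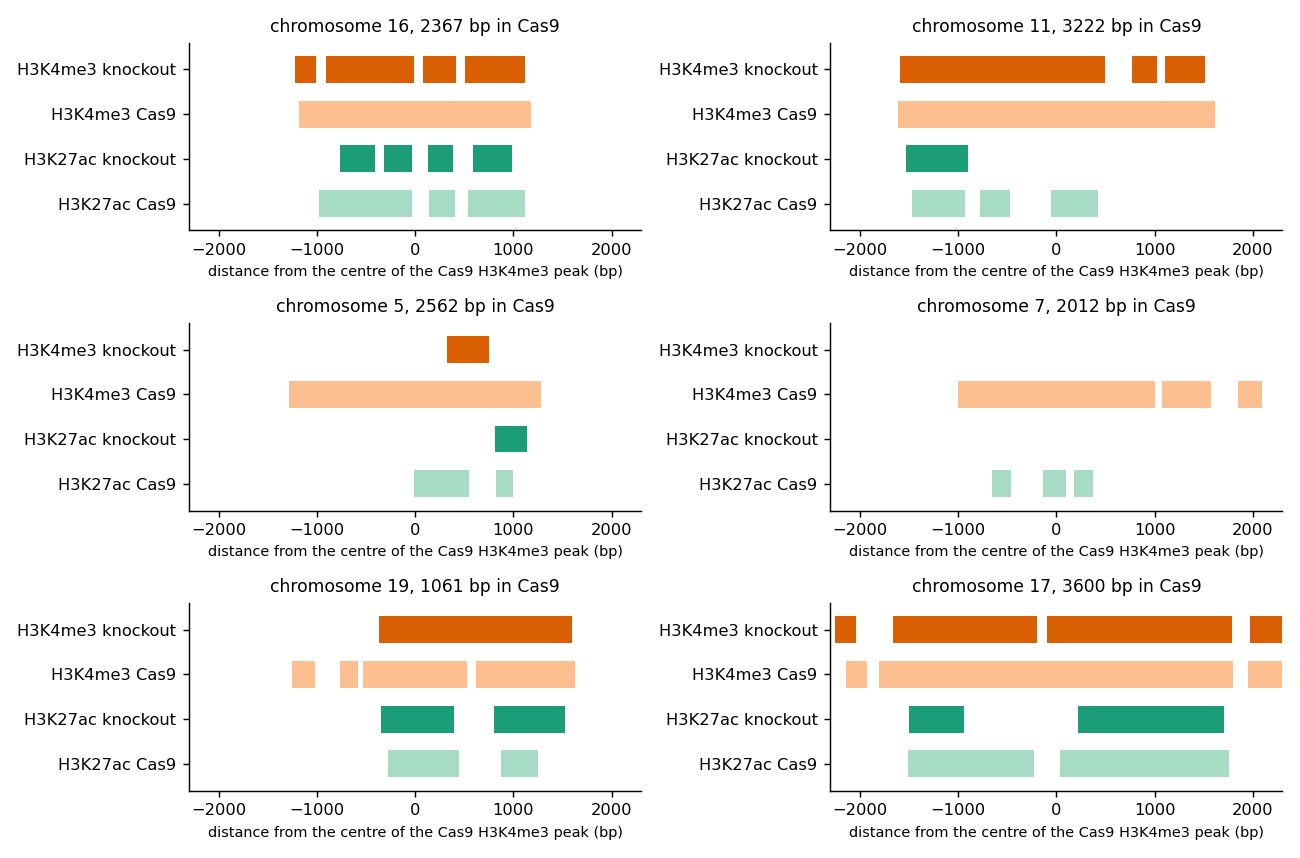
H3K4me3 and H3K27ac peaks in the Ezh2 knockout and Cas9 cells at 6 broad active promoters, by distance in bp from the centre of the Cas9 H3K4me3 peak. Knockout H3K4me3 lay in 4 pieces at the chromosome 16 promoter of 2367 bp, spanned 425 bp at the chromosome 5 promoter of 2562 bp, was absent from the list at the chromosome 7 promoter of 2012 bp, and joined the chromosome 19 promoter of 1061 bp with its neighbour of 1011 bp.

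The share split was higher where the Cas9 score was low. Among promoters of median width or more it was found in 28.3% (25 to 32.0) of those with a score of 47 or more and 43.1% (38.7 to 47.6) of those with a lower score. Among the narrower ones it was found in 8.88% (6.70 to 11.7) and 23.7% (20.5 to 27.3). The 575 split promoters had a median Cas9 width of 1409 bp and score of 43, and the 1653 with 1 knockout peak 1221 bp and 48. When both H3K4me3 lists were limited to the upper 50% of scores, 5.13% of promoters were split. The smaller pieces had a median percentile of 33.1, below that limit. The part that low scores play in the gaps was not tested.

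The number of Cas9 H3K27ac peaks went with splitting too. Of the 429 promoters with 2 or more, 47.1% were split in the knockout, against 20.7% of the 1800 with 1. Their median widths in Cas9 cells were 1525 and 1226 bp, so that width moved along with the number of peaks.

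Beside splitting, broad active promoters were somewhat narrower in the knockout. The summed width of overlapping knockout H3K4me3 peaks had a median of 1138 bp, against 1267 bp in Cas9 cells. The ratio of knockout to Cas9 width had a median of 0.889 and quartiles of 0.775 and 0.978, and its median was 0.907 in narrow active promoters and 0.920 in all H3K4me3 peaks. It was below 1 in 1793 of 2228 promoters, or 80.5% (78.8 to 82.1), against 64.1% of all H3K4me3 peaks. Because Cas9 width chose the members, widths were also compared without that choice.

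Pairs of 1 knockout and 1 Cas9 peak, active in both kinds of cell, were therefore grouped by their mean width. The knockout peak was the narrower in 75.2% (72.8 to 77.5) of 1275 pairs with a mean width of 1000 bp or more and in 74.2% (72.8 to 75.5) of 4059 narrower pairs. The median loss was 89 bp in the broad pairs and 78 bp in the others, and the median ratios were 0.931 and 0.883. The losses were of like size in bp, and as a ratio the loss was smaller in the broad pairs. For promoters chosen by the same rule in the knockout the median ratio was 0.955, still below 1.

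By summed width, knockout peaks were narrower by 1.5-fold or more at 220 promoters, or 9.87% (8.70 to 11.2), against 13.7% of all H3K4me3 peaks and 12.9% of narrow active promoters. They were wider by 1.5-fold or more at 8, or 0.359% (0.182 to 0.707), against 9.16% of all H3K4me3 peaks. Members were chosen by a Cas9 width of 1000 bp or more, while the background holds peaks of any width. The 2 shares of widening are therefore not a like comparison. Such narrowing was found in 11.4% (9.62 to 13.4) of promoters under 1250 bp and 5.80% (2.97 to 11.0) of those of 2000 bp or more. Both orders depended on how width was measured. By the widest overlapping knockout peak alone, 544 promoters, or 24.4% (22.7 to 26.2), were narrower by 1.5-fold or more, against 19.0% of all H3K4me3 peaks and 15.8% (14.8 to 16.9) of narrow active promoters. By that measure the share was 20.4% (18.1 to 23.0) under 1250 bp and 39.1% (31.4 to 47.5) at 2000 bp or more. Each piece of a split promoter counts toward the summed width, and 1 piece toward the widest. By the same rule in the knockout, Cas9 peaks were the narrower by 1.5-fold or more at 29 of 1649 promoters, or 1.76%.

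**Figure D3:**
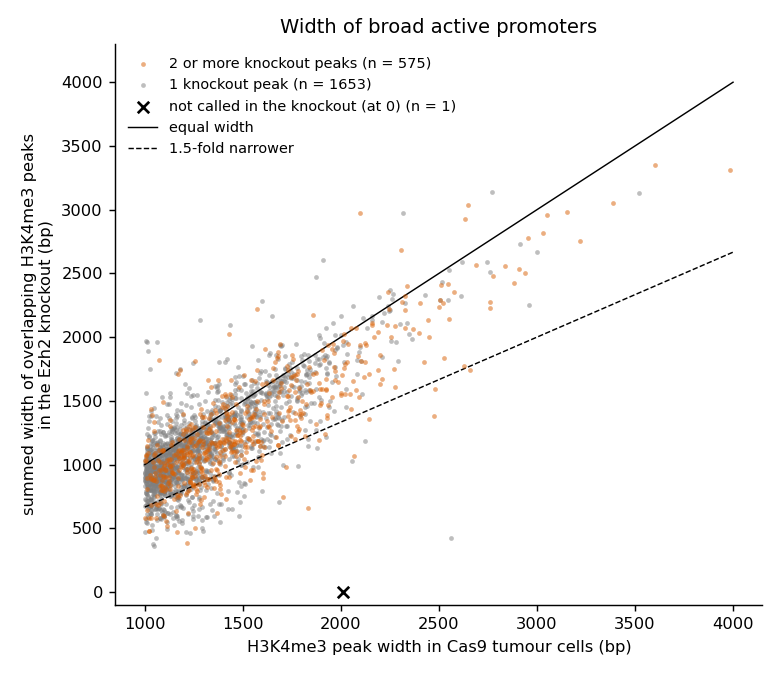
Summed width in bp of the overlapping H3K4me3 peaks in the Ezh2 knockout against the width in bp in Cas9 cells, 1 point for each of the 2229 broad active promoters. Most points lie just under the line of equal width, 220 of those called again lie at or under the dashed line of 1.5-fold narrowing, and 575 promoters held 2 or more knockout peaks.

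The position of the 2 edges was compared as well. Among the 1653 promoters with 1 knockout peak, both edges lay inside the Cas9 peak in 831, or 50.3% (47.9 to 52.7), 1 edge did in 702, or 42.5% (40.1 to 44.9), and neither did in 120. The 2 edges of each promoter were also sorted by shift, which sets them apart by construction. The edge that moved inward more then had a median shift of 126 bp and the other of 1 bp. The edge at the lower coordinate moved inward by a median of 45 bp and the edge at the higher coordinate by 54 bp.

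The strongest narrowing was on chromosome 5 from 113565623 to 113568184. There a knockout H3K4me3 peak of 425 bp stood against 2562 bp in Cas9 cells, a ratio of 0.166, and 1 H3K27ac peak of 325 bp in the knockout stood against 2 of 565 and 171 bp in Cas9 cells. Its Cas9 score was 21, against a median of 47. The next lowest ratio, 0.314, was on chromosome 17 from 86091228 to 86092440, with knockout pieces of 180 and 201 bp against 1213 bp in Cas9 cells. H3K27ac covered 24.3% of it in the knockout and 94.1% in Cas9 cells.

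The highest ratio was 1.96, on chromosome 10 from 42893820 to 42894825, with 1970 bp in the knockout and 1006 bp in Cas9 cells. H3K27ac covered 73.4% of that promoter in the knockout and 39.96% in Cas9 cells. Some widening came from neighbours that were joined. On chromosome 19, members from 55816708 to 55817768 and from 55817858 to 55818868, of 1061 and 1011 bp, were overlapped by 1 knockout peak of 1962 bp. Another Cas9 H3K4me3 peak lay within 500 bp of 650 promoters, or 29.2% (27.3 to 31.1). The same share over all H3K4me3 peaks was not computed.

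Acetylation of broad active promoters was almost always called again in the knockout. An H3K27ac peak of the knockout overlapped 2189 of 2229, or 98.2% (97.6 to 98.7), against 93.8% of the 7114 H3K4me3 peaks acetylated in Cas9 cells and 91.7% (90.9 to 92.5) of narrow active promoters. With the knockout list trimmed to 7951 peaks the share was 93.7%. The members were also chosen for width, whose part in these shares was not tested. The H3K27ac peak with the highest score at each promoter stood at a median percentile of 75.6 within the knockout list and 70.6 within the Cas9 list. In narrow active promoters these percentiles were 60.9 and 49.7.

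The number of H3K27ac peaks inside differed little between the cells. In the knockout 1697 promoters held 1 peak, 444 held 2, 40 held 3 and 8 held 4, while 40 held 0. In Cas9 cells 1800 held 1, 392 held 2, 35 held 3 and 2 held 4, with at least 1 required by the rule. The totals were 2737 peaks in the knockout and 2697 in Cas9 cells. The number was higher in the knockout at 267 promoters, or 12.0% (10.7 to 13.4), lower at 223, or 10.0% (8.83 to 11.3), and equal at 1739, or 78.0%. With the lists as deposited, higher and lower numbers were thus nearly balanced. Among them, 237 promoters held 2 or more peaks in the knockout and 1 in Cas9 cells, and 171 held 1 in the knockout and 2 or more in Cas9 cells.

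At least 2 H3K27ac peaks lay in 22.1% (20.4 to 23.8) of promoters in the knockout and 19.2% (17.7 to 20.9) in Cas9 cells, against 8.86% and 7.63% of the 7114 H3K4me3 peaks acetylated in Cas9 cells, but with the knockout list trimmed to equal number the knockout share was 13.5%, below the Cas9 share. The direction of this difference therefore depended on the size of the list. The share grew with width in both cells. It was 11.5% in the knockout and 9.15% in Cas9 cells for promoters under 1250 bp, 23.2% and 19.0% from 1250 to under 1500 bp, 36.9% and 33.0% from 1500 to under 2000 bp, and 50.4% and 53.2% for those of 2000 bp or more. Where 2 peaks were present, the gap between them had a median of 145.5 bp in the knockout and the same in Cas9 cells.

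**Figure D4:**
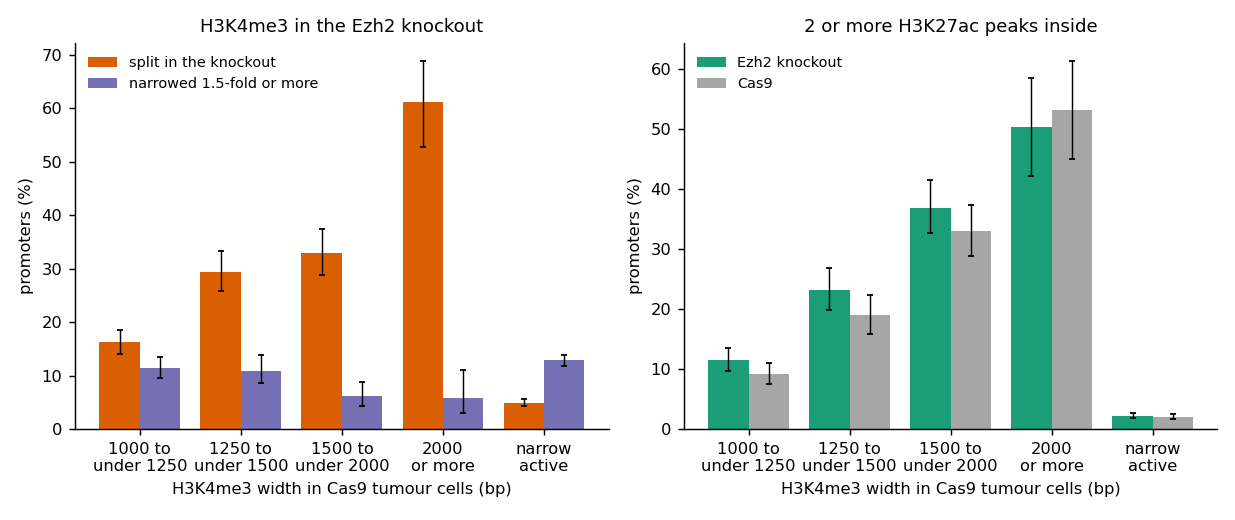
Shares of promoters in percent by H3K4me3 width in Cas9 cells, with Wilson 95% intervals, for 4 width classes of broad active promoters and for narrow active promoters. Left, splitting grew to 61.2% in the widest class while narrowing of 1.5-fold or more in summed width was at 5.80% there, and at 39.1% by the widest knockout peak, which is not drawn. Right, 2 or more H3K27ac peaks lay in 22.1% of all broad active promoters in the knockout and 19.2% in Cas9 cells, an order that turned round, to 13.5% against 19.2%, with the knockout list trimmed to equal number.

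Most promoters with a single H3K27ac peak held it well inside the H3K4me3 peak. In Cas9 cells it lay wholly inside in 1599 of 1800, or 88.8%, with a median width of 658.5 bp. Its middle lay at a median of 21.7% of the way from the centre of the H3K4me3 peak to its edge. H3K27ac covered a median of 59.0% of each promoter in the knockout and 54.2% in Cas9 cells. Cover was greater in the knockout at 1293 promoters, or 58.0% (55.9 to 60.04), against 55.2% of the 7114 acetylated H3K4me3 peaks, and smaller at 923. With the trimmed knockout list the median was 56.9%, and cover was greater at 1190 promoters and smaller at 1027.

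The 40 promoters with no knockout H3K27ac peak were 1.79% (1.32 to 2.43) of the 2229, against 6.17% of all acetylated H3K4me3 peaks. With the trimmed knockout list 141 promoters, or 6.33% (5.39 to 7.41), had none, against 13.1% of the acetylated peaks, so that the number and the promoters depended on the length of the list. For the 40, H3K27ac was low in Cas9 cells, with a median cover of 21.4% and a median score percentile of 10.9 in the Cas9 list. The median Cas9 H3K4me3 score of the 40 was also low, at 36 against 47 in the 2229. The part of score in the shares that follow was not tested. Their H3K4me3 was split in 19 of 40, or 47.5% (32.9 to 62.5), against 25.8% of the 2229 and 8.20% of all H3K4me3 peaks. It was narrower by 1.5-fold or more in summed width in 15 of 39, or 38.5% (24.9 to 54.1), against 9.87% of members and 13.7% of all peaks. On chromosome 4 from 54960509 to 54962341, 3 knockout pieces with a summed width of 657 bp stood against 1833 bp in Cas9 cells, where H3K27ac covered 9.27%. On chromosome 12 from 81212065 to 81213998, in contrast, H3K4me3 measured 1938 bp in the knockout and 1934 bp in Cas9 cells, while H3K27ac covered 0% and 26.7%.

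Few of these promoters carried H3K27me3 in the knockout, whose list held 5312 islands. A knockout island touched 17 promoters, or 0.763% (0.477 to 1.22), against 1.56% of all H3K4me3 peaks and 0.210% of narrow active promoters. Since the rule left out promoters under Cas9 islands, this count has no Cas9 value to set beside it. The share over all H3K4me3 peaks keeps peaks under Cas9 islands, so it is not a like comparison. Narrow active promoters passed the same exclusion, and their share was lower than that of the members. They are also shorter, and the part of width in this difference was not tested. The 17 kept H3K4me3 and H3K27ac in the knockout, and their width ratio had a median of 0.930. Among them were the chromosome 17 promoter of 3600 bp, the narrowed one on chromosome 17 from 86091228, the widened one on chromosome 10 from 42893820, and one on chromosome 4 from 45197279 to 45200280. The chromosome 4 promoter held 4 H3K27ac peaks in the knockout and 3 in Cas9 cells, which covered 60.6% and 82.7% of it. It was 2665 bp wide in the knockout and 3002 bp in Cas9 cells.

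In neurospheres, Gfi1 antibody islands lay over nearly all broad active promoters. An island of the Suz12F2 library overlapped 2221 of 2229, or 99.6% (99.3 to 99.8), and an island of the Cas9 library 2055, or 92.2% (91.0 to 93.2), against 97.5% and 86.4% of all H3K4me3 peaks. In narrow active promoters the shares were 98.8% and 84.5%. The lists are long, with 294 Mb in 67079 islands for Suz12F2 and 368 Mb in 63177 islands for Cas9, and nearly all H3K4me3 peaks lie under an island, so the shares of the members are near the background. Both libraries had an island at 2054 promoters, or 92.1%, against 86.0% of all H3K4me3 peaks, and neither had one at 7, or 0.314%, against 2.10%. Suz12F2 alone had one at 167, or 7.49%, against 11.5%, and Cas9 alone at 1, or 0.0449%, against 0.432%.

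The Gfi1 antibody islands were larger than the promoters. Of overlapped promoters, 85.0% lay wholly inside an island of the Suz12F2 library and 83.6% inside one of the Cas9 library. Island length over members had a median of 3200 bp for Suz12F2 and 4000 bp for Cas9, close to the 3000 and 4000 bp of the whole lists. Island scores over members stood at median percentiles of 81.5 within the Suz12F2 list and 66.1 within the Cas9 list. At midpoints the shares were 99.3% in Suz12F2 and 90.7% in Cas9, against 96.9% and 85.5% of all H3K4me3 peaks. With the upper 50% of island scores, 94.6% of promoters were overlapped in Suz12F2 and 65.5% in Cas9. The Cas9 share thus rested more on low-scoring islands. These shares and the score percentiles were not computed over all H3K4me3 peaks, so whether they are particular to the members was not tested. The widest of the 7 promoters under neither lay on chromosome 3 from 94641308 to 94642686, with 920 bp of H3K4me3 in the knockout and 1379 bp in Cas9 tumour cells. The 1 promoter under an island of the Cas9 library alone lay on chromosome 1 from 34898608 to 34899948, with 646 bp in the knockout and 1341 bp in Cas9 tumour cells; it was named because it was the only one.

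Cas9 antibody islands were much rarer and differed between the neurosphere libraries. They overlapped 2 promoters in Suz12F1, or 0.0897% (0.0246 to 0.327), 279 in Suz12F2, or 12.5% (11.2 to 14.0), and 517 in U6, or 23.2% (21.5 to 24.99). All H3K4me3 peaks gave 0.0557%, 6.39% and 13.2%, and narrow active promoters 0.0420%, 4.71% and 10.9%. The lists held 916, 1048 and 2966 islands, and of these 0.218%, 26.1% and 17.3% lay over a broad active promoter. Trimmed to 916 islands each, Suz12F2 reached 244 promoters, or 10.9%, and U6 235, or 10.5%, so that their shares were close. Suz12F1, with 916 islands as deposited, overlapped 2. The part of list length in these shares was not tested, and the trimmed shares were not computed over all H3K4me3 peaks.

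Suz12F2 and U6 shared some promoters. Both had a Cas9 antibody island at 147, or 6.59%, against 3.18% of all H3K4me3 peaks. Suz12F2 but not U6 had one at 132, or 5.92%, against 3.21%, and U6 but not Suz12F2 at 370, or 16.6%, against 10.0%. None of the 3 libraries had one at 1578, or 70.8%, against 83.5%. The shared promoters were 52.7% of those of Suz12F2 and 28.4% of those of U6. The 2 promoters under a Suz12F1 island, named for their small number, were a peak on chromosome 1 from 173275475 to 173276636 and one on chromosome 10 from 127520347 to 127521497, and neither had an island in Suz12F2 or U6. The widest promoter under islands of Suz12F2 and U6 was the chromosome 17 promoter from 4994070 to 4997456, under islands of 5800 bp in Suz12F2 and 3600 bp in U6.

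The Cas9 antibody shares grew with promoter width also at a single position, the midpoint. Over all members an island lay over the midpoint of 0.0449% in Suz12F1, 12.0% in Suz12F2 and 21.7% in U6, against 0.0348%, 6.09% and 12.1% of all H3K4me3 peaks. An island lay over the midpoint of 7.84% of promoters under 1250 bp in Suz12F2 and 17.3% in U6, 11.3% and 21.5% from 1250 to under 1500 bp, 17.1% and 27.9% from 1500 to under 2000 bp, and 30.2% and 36.0% of those of 2000 bp or more. The shares also went with score. Among promoters of median width or more, U6 islands lay over 29.3% of midpoints with a Cas9 tumour score of 47 or more and 20.7% with a lower one, and among narrower promoters over 24.3% and 12.2%. Suz12F2 islands lay over 17.9%, 13.1%, 9.07% and 7.41% of the midpoints of the same 4 classes.

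**Figure D5:**
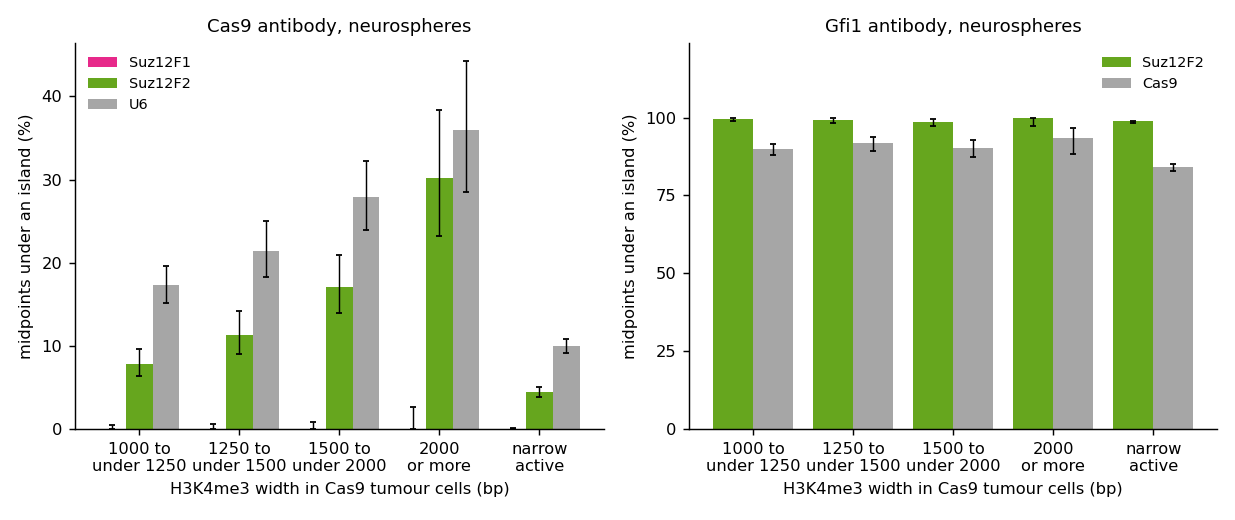
Share in percent of promoter midpoints under a neurosphere island, by H3K4me3 width in Cas9 tumour cells, with Wilson 95% intervals. Left, Cas9 antibody islands lay over 30.2% of midpoints in Suz12F2 and 36.0% in U6 in the widest class, and Suz12F1 stayed near 0. Right, Gfi1 antibody islands lay over 99.3% of midpoints of broad active promoters in Suz12F2 and 90.7% in Cas9 neurospheres.

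The shape of promoters in the tumour knockout was also set beside the Cas9 antibody islands of U6. Of the 517 under such an island, 22.4% were split, against 26.8% of the 1712 others, and 5.22% were narrower by 1.5-fold or more, against 11.3%. Their median Cas9 tumour width was 1327 bp, against 1245.5 bp, and their median score 50, against 46. Outside all 3 Cas9 antibody lists 26.9% of 1578 promoters were split, against 25.8% of the 2229. Gfi1 antibody islands of Suz12F2 overlapped 574 of the 575 split promoters, against 99.6% of all members and 97.5% of all H3K4me3 peaks. Those of Cas9 neurospheres overlapped 537, or 93.4% (91.1 to 95.1), against 92.2% of all members and 86.4% of all H3K4me3 peaks. In both libraries the split promoters were thus near all members.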

How the data were processed

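ChIP-seq enrichment lists of 11 libraries were analysed out of 14 in the series, 8 from tumour cells and 6 from neurospheres, and the 3 inputs were not used. The submitters' processing notes name build mm9 and, with no role or order, SICER 1.1, R 2.14.0, SAMtools, Picard and BWA 0.5.9-r26. The peak caller of the 4 H3K4me3 and H3K27ac lists was not given in the sources used here. The 7 H3K27me3 and neurosphere lists hold islands, and the names the authors gave them state a 200 bp window, a 600 bp gap and a false discovery rate of 0.00001. Island ends were extended by 1 bp to include the last base. The deposited score of each region is the authors' own, with no stated meaning, and served for ranking inside a single list. Some numbered regions were not analysed here: 467 of the knockout and 486 of the Cas9 H3K4me3 list, 363 and 375 of H3K27ac, and 105 and 71 of H3K27me3.

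Groups came from the titles and antibody labels. An overlap was 1 bp or more, and knockout width was the sum of the overlapping peaks. The tools were Python 3.11.15 with scipy 1.17.1 and numpy 2.4.6, and matplotlib 3.10.9 for figures. Overlaps computed for 11 lists were set against bedtools 2.31.1, with 0 differing. Splits planted in a copy of the Cas9 H3K4me3 list were recovered, which checks the code and not the splits reported here. With 1 library per group there was no test, and read depth is unknown, so the precision given is that of counting regions. Named regions were the 5 most extreme members by width, score, number of pieces, width ratio, H3K27ac number, loss of H3K27ac, lack of a Gfi1 antibody island, and Cas9 antibody overlap, with the 3 nearest to 1000 bp on each side; some of these are given. The members, classes and lists were chosen with earlier results of these data known, and promoters with a knockout H3K27me3 island were named after their values were seen. No sequence is printed, since no genome of build mm9 was used here.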

Additional observations from a re-analysis of the deposited data

How the results depend on the processing

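Of 42 alternatives for 13 results, 12 left the value within its counting interval or within 1.5 times the count, and 30 moved it. A change of direction could be scored for the median width ratio alone, which stayed below 1 in each of its alternatives. The cause of a moved value was not tested unless stated. The order of groups turned round for the share with at least 2 H3K27ac peaks, at 13.5% in the trimmed knockout list against 19.2% in Cas9 cells. The Cas9 antibody shares of Suz12F2 and U6 became close with lists of equal number. No paired analysis was possible because each group held 1 library and no test was made. A minimum of 1500 bp left 594 promoters and a 50% cover by H3K27ac left 1268, against 2229. The share called again was 98.1% with 50% cover and 96.9% with the upper 50% of scores. The share split, 25.8% as reported, was 39.6% at 1500 bp, 5.13% with the upper 50% of scores, 2.59% with merging within 500 bp and, chosen after seeing the data, 12.1% with merging within 200 bp and 11.3% for knockout promoters in the Cas9 list. The share narrowed by 1.5-fold was 24.4% by the widest knockout peak, 7.23% by the span, 16.9% with merging within 500 bp, 6.07% at 1500 bp and 1.89% for 2-fold, against 9.87%. The median width ratio of 0.889 became 0.840 by the widest peak, 0.915 by the span, 0.873 with merging, 0.896 at 1500 bp, 0.955 for promoters chosen in the knockout and, added later, 0.931 for pairs. The share acetylated in the knockout was 93.7% with the trimmed list and 64.4% with 50% cover. At least 2 H3K27ac peaks lay in 13.5% with the trimmed knockout list and, in Cas9 cells, in 13.7% of promoters with exactly 1 knockout H3K4me3 peak, an alternative added later. For the Gfi1 antibody the Suz12F2 share was 99.3% at midpoints and 94.6% with the upper 50% of scores, and the Cas9 share 90.7% and 65.5%. With 916 Cas9 antibody islands each, Suz12F2 reached 10.9% and U6 10.5%, against 12.5% and 23.2% as deposited. Depth limits what a missing peak shows, since none of the lists gives it.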

Other observations

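Broad active promoters were few on chromosome X. It held 15 of the 2229, or 4.27% of its 351 H3K4me3 peaks, while the share on single autosomes lay between 13.0% and 17.2%. Chromosome X held 0.673% (0.408 to 1.11) of broad active promoters and 2.44% of all H3K4me3 peaks. Chromosome Y had 1 H3K4me3 peak, and it was not a member.

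Neighbourhoods differed as well. Next to the chromosome 7 promoter with 0 knockout peaks, Cas9 cells had H3K4me3 peaks of 497 and 240 bp, and neither was overlapped in the knockout. Beside the joined pair on chromosome 19, Cas9 cells had H3K4me3 peaks of 234 and 180 bp that no knockout peak overlapped. Both chromosome 17 members under a knockout H3K27me3 island lay under the same Gfi1 antibody island, of 9400 bp in Suz12F2 and 8200 bp in Cas9 neurospheres.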
